A study of Mus musculus with 24 samples.

Results

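The genes described are 10 heat shock proteins of the cytosol and the mitochondrion: Hspa1a, Hspa1b, Hspa8, Hsp90aa1, Hsp90ab1, Hsph1, Dnajb1, Hspd1, Hspe1 and Hspa9. They were given by name and matched by gene identifier, and they are 10 of 55471 genes counted. The study sequenced polyadenylated RNA from mouse preimplantation embryos of the B6D2F1 hybrid, each library made from a pool of 10 embryos. Embryos were collected at the late 2-cell stage or at the morula stage. They were wild type, or were edited at the zygote stage by injecting Cas9 protein (100 ng/µL) with 3 guides for 1 gene (50 ng/µL each), either Ttf1 or Zfp622, and are called Ttf1 knockout and Zfp622 knockout as in the labels. Each of the 6 combinations of genotype and stage had 4 libraries, 24 in all. Injected embryos can be mosaic, so a pool may hold unedited cells, and whether the wild-type embryos were also injected is not given in the sources used here. A dam age of 3 to 4 weeks is recorded for all 24 libraries, wild type included. The zygotes for the knockouts came from superovulated females mated to males of the same hybrid, and injected embryos were grown in KSOM medium.

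Heat shock proteins are molecular chaperones that bind unfolded protein chains and help them fold. Cytosolic HSP70 proteins pass clients to HSP90 with the help of J-domain proteins such as DNAJB1 and of nucleotide exchange factors such as HSPH1, while in the mitochondrial matrix HSPA9 pulls in imported chains and the HSPD1 barrel with its HSPE1 lid folds them. Some members are made at all times (Hspa8, Hsp90ab1, the mitochondrial genes), and others are induced by heat shock factors on stress (Hspa1a, Hspa1b). The inducible HSP70 genes are also among the first genes transcribed when the mouse embryonic genome is activated, around the 2-cell stage.

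Sequences are shown for the genes whose transcripts moved together at the morula stage: the mitochondrial pair Hspd1 and Hspe1, and the cytosolic pair Hspa1a and Hspa1b. RefSeq promoter windows of build GRCm38.p6, 250 bases before to 50 bases after a start site, were found for 6 members, and 4 (Hspa8, Hsp90aa1, Hsp90ab1 and Hspa9) had none. Hspd1 and Hspe1 lie head to head on chromosome 1, Hspd1 (ENSMUSG00000025980) at 55077835 to 55088243 on the minus strand and Hspe1 (ENSMUSG00000073676) at 55088132 to 55091307 on the plus strand. The Hspe1 window, chr1:55087898-55088197 on the plus strand, shares 285 bases with the Hspd1 window of a start site inside that gene, chr1:55087883-55088182. The other Hspd1 window, chr1:55088194-55088493 at the annotated gene start, shares 4 bases with it, holds no GAANNTTC or TTCNNGAA and holds 1 CCAAT. Capitals mark heat shock element matches, inverted GAA repeats of the form GAANNTTC or TTCNNGAA.
Hspe1: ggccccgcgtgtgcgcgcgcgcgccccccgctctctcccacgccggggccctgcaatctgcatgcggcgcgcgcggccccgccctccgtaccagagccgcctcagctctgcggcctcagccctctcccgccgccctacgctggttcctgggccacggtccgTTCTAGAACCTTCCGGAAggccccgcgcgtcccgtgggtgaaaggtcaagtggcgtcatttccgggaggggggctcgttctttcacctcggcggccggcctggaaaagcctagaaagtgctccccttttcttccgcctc
The capitals are 3 overlapping matches of 8 bases, the first beginning at position -89 from the Hspe1 start site, and each shares 3 letters with the next. A GAANNTTC and a TTCNNGAA that share 3 letters, a run of 3 repeats, were found in either order in 0.603% of 32851 windows, GAANNTTC alone in 7.86% and TTCNNGAA in 8.52%. In the Hspe1 window the letters CCAAT, a common promoter motif, were not found on either strand.

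Hspa1a (ENSMUSG00000091971) at 34969190 to 34972156 and Hspa1b (ENSMUSG00000090877) at 34956436 to 34959238 lie on the minus strand of chromosome 17. Their windows, chr17:34972107-34972406 and chr17:34959189-34959488, are printed because they are identical at 296 of 300 aligned bases (98.7%). Capitals mark GAANNTTC.
Hspa1a: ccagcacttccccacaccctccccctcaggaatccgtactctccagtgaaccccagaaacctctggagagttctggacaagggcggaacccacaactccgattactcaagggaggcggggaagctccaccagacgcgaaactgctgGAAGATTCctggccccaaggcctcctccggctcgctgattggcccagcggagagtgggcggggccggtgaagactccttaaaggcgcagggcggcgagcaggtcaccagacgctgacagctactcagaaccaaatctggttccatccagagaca
Hspa1b: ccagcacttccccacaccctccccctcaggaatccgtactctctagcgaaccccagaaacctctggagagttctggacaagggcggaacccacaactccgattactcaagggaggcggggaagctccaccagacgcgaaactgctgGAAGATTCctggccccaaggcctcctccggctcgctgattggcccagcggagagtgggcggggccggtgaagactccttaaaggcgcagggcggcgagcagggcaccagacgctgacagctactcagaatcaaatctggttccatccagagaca
Each window holds 1 such match, beginning at position -104, and 1 CCAAT on the opposite strand at position -67, a motif that 37.4% of all windows hold on one strand or the other. Of the remaining members with a window, Hsph1 (chromosome 5) holds a run of 3 repeats that begins after the start site, at position 37 or 16 depending on the start site, and a separate TTCNNGAA before it, at -33 or -54, and the Dnajb1 windows (chromosome 8) hold no GAANNTTC or TTCNNGAA. These matches describe letters in a window and say nothing of binding.

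Sequence shared between transcripts limits how Hspa1a and Hspa1b can be counted. Of all 150-base stretches of the longest transcript, 46.0% in Hspa1a and 40.5% in Hspa1b occur in another gene, most often in each other, and pairs of reads that map to several places were not counted. The share was 56.0% in Hspa8, 36.2% in Hsp90aa1, 18.6% in Hspd1, 14.1% in Hspe1 and 0 in Hsp90ab1, Hsph1, Dnajb1 and Hspa9. Absolute levels of the 6 genes with such stretches are therefore uncertain and may be too low. The shares are of single stretches while reads were counted as pairs, and the loss was not measured. Hspd1 and Hspe1 exons also share 112 bases on opposite strands, and counting ignored strand and left out reads lying in both.

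Values are CPM, read counts scaled to a common library size after TMM normalization, over the 12 libraries of a stage for knockout comparisons and over all 24 libraries where stages are compared. Total counts were 10538723 to 13528954 per late 2-cell library and 12690369 to 17807596 per morula library. A gene was called at an adjusted p of at most 0.05 by edgeR's quasi-likelihood test with Benjamini-Hochberg adjustment over all genes tested. Ttf1 was between 83.3 and 94.7 CPM in wild type and between 27.5 and 38.9 CPM in the Ttf1 knockout at the late 2-cell stage, and 41.3 to 44.8 against 23.9 to 27.2 CPM at morula. Zfp622 was 184 to 205 CPM in wild type against 52.5 to 105.5 CPM in its knockout at the late 2-cell stage, and 48.0 to 59.1 against 6.09 to 19.9 CPM at morula. All Ttf1 knockout libraries carry sequencing lane 1 in their headers and all others lane 2, so lane and the Ttf1 knockout cannot be told apart. Late 2-cell wild-type library 4 and morula wild-type libraries 3 and 4 have an additional number in their headers. It is called an additional or second index below, but its meaning is not given. These libraries also have the most counts among wild type of their stage, 12686381, 17807596 and 16144255. Both knockouts are compared with the same wild-type libraries, so their results share those controls. A pool gives relative levels only, and fewer cells of a type cannot be told apart from less RNA per cell.

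At the morula stage Hspd1, Hspe1 and Hspa9, which act in the mitochondrion, were lower in both knockouts, and Hspa1a and Hspa1b, the inducible cytosolic HSP70 genes, were higher in both. Of the other cytosolic members, Dnajb1 was called lower in the Ttf1 knockout and Hspa8 in the Zfp622 knockout, and Hsp90aa1, Hsp90ab1 and Hsph1 were called in neither. In the Ttf1 knockout 2 of the 10 members were called higher and 4 lower, where 39.2% of 14865 genes tested were called (21.3% higher, 17.9% lower). In the Zfp622 knockout the counts were also 2 higher and 4 lower, where 29.1% of genes were called (15.6% higher, 13.5% lower). The libraries of knockout and wild type did not overlap for 6 members in each comparison, against 36.5% of all genes for Ttf1 and 30.8% for Zfp622. The members' median log2 fold change was -0.20 in the Ttf1 knockout and -0.05 in the Zfp622 knockout, beside 0.04 and 0.03 over all genes.

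**Figure D1:**
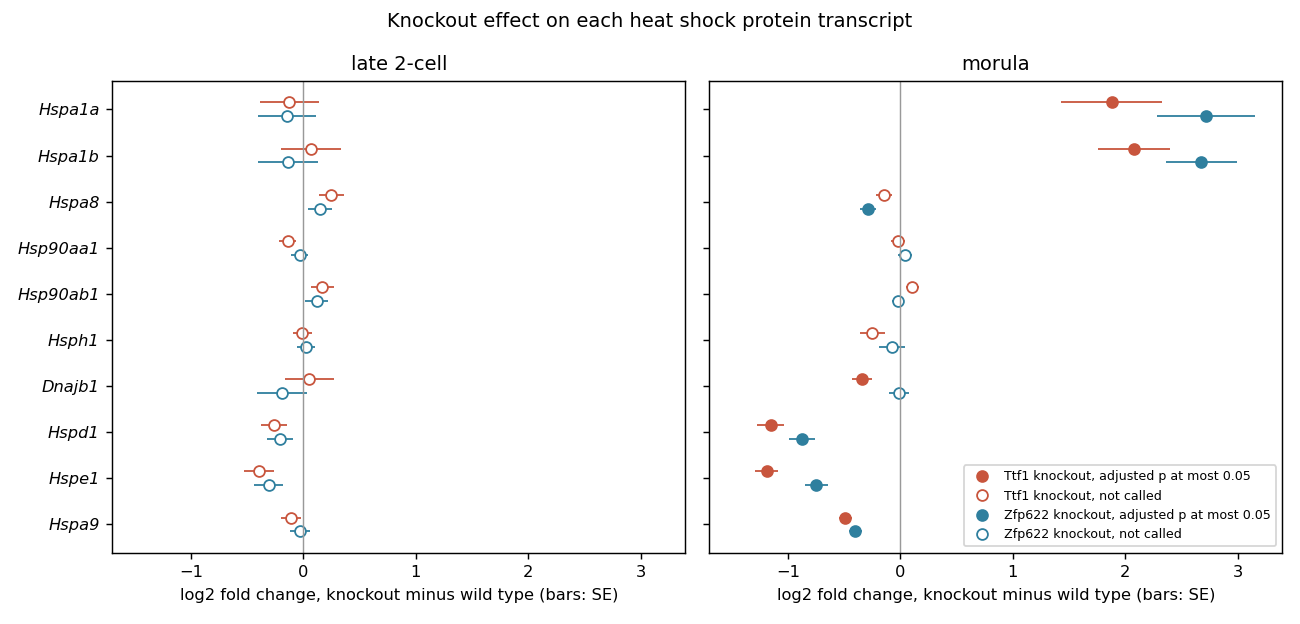
Log2 fold change of each heat shock protein transcript, knockout minus wild type (x axis), with its standard error as bars, at the late 2-cell stage (left) and at morula (right). Filled points passed an adjusted p of 0.05 and open points did not; all points on the left are open, and at morula Hspa1a and Hspa1b lie on the right while Hspd1, Hspe1 and Hspa9 lie on the left of 0.

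Hspd1 encodes the subunit of the mitochondrial chaperonin HSP60. Its levels in the wild-type morula libraries were 490, 583, 550 and 513 CPM. In the Ttf1 knockout they were 250.4, 184, 256 and 269 CPM, and in the Zfp622 knockout 321, 287, 321 and 234 CPM. Every knockout library lay below every wild-type library. The Ttf1 knockout mean was 44.9% of wild type, a log2 fold change of -1.16 (SE 0.12, adjusted p = 8.2e-06). The Zfp622 knockout mean was 54.5% of wild type, a log2 fold change of -0.88 (SE 0.12, adjusted p = 0.000128).

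Hspe1 encodes HSP10, the lid of that chaperonin. In wild-type morulae it was at 261, 316, 289 and 269 CPM. It was at 149, 99.1, 125 and 123 CPM in the Ttf1 knockout and at 174, 153, 184 and 164 CPM in the Zfp622 knockout. The groups did not overlap with wild type, nor, with the lowest Zfp622 knockout library at 153 CPM and the highest Ttf1 knockout library at 149 CPM, with each other. Hspe1 fell by 1.19 on the log2 scale in the Ttf1 knockout (SE 0.10, adjusted p = 1.42e-06) and by 0.75 in the Zfp622 knockout (SE 0.10, adjusted p = 0.000111).

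Hspe1 and Hspd1 were also compared as a ratio. The ratio of Hspe1 to Hspd1 counts, not corrected for length, was 0.531 ± 0.00822 (SD, n = 4) in wild-type morulae, 0.521 ± 0.0594 in the Ttf1 knockout and 0.587 ± 0.0767 in the Zfp622 knockout. Wild-type libraries lay between 0.524 and 0.542, Ttf1 knockout libraries between 0.459 and 0.595, and Zfp622 knockout libraries between 0.532 and 0.699, so the groups overlapped. No test of the ratio was made. At the late 2-cell stage it was 0.444 ± 0.0238 in wild type. Across the 24 libraries the log2 levels of both genes had a Pearson correlation of 0.995, a description that rests mostly on the difference between stages.

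**Figure D2:**
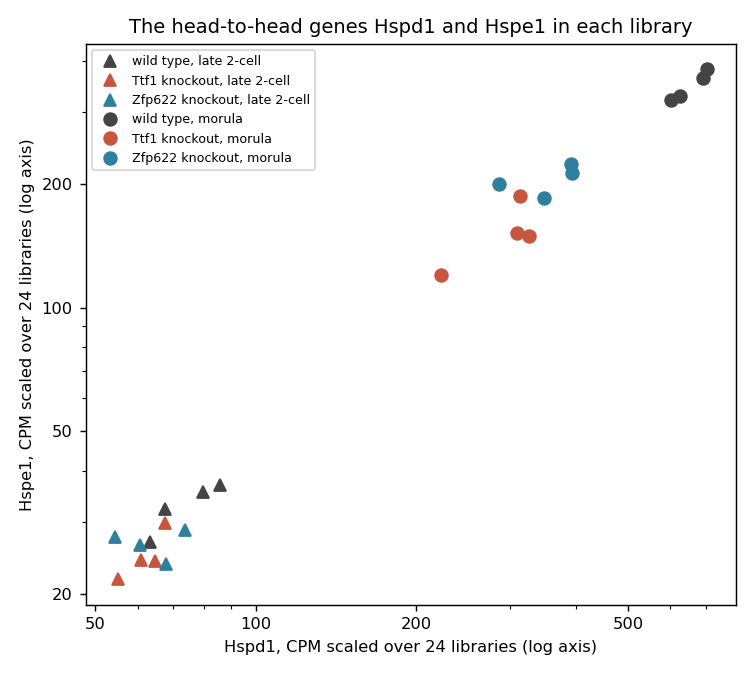
Hspe1 against Hspd1 in each of the 24 libraries, both axes logarithmic, in CPM scaled over all libraries. Late 2-cell libraries (triangles) sit at the lower left, wild-type morulae (grey circles) at the upper right, and the morulae of both knockouts between them, with Hspd1 between 222 and 393 CPM.

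Hspa9 (ENSMUSG00000024359, chromosome 18), the mitochondrial HSP70 that drives protein import, fell less, with little spread between libraries. It was at 526, 506, 535 and 524 CPM in wild-type morulae. The Ttf1 knockout libraries held 371, 374, 368 and 374 CPM and the Zfp622 knockout libraries 416, 403, 384 and 380 CPM. No knockout library reached the lowest wild-type level. Hspa9 had a log2 fold change of -0.49 (SE 0.06, adjusted p = 1.07e-05) in the Ttf1 knockout and -0.40 (SE 0.06, adjusted p = 0.000115) in the Zfp622 knockout. Together, Hspd1, Hspe1 and Hspa9 took 0.134% ± 0.00702 of all counts in wild-type morulae, 0.0726% ± 0.00656 in the Ttf1 knockout and 0.0864% ± 0.00697 in the Zfp622 knockout (SD, n = 4 each).

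All gene positions are those of the deposited annotation, build GRCm38. Hspa1a and Hspa1b encode near-identical inducible HSP70 proteins, and their counts were low. In wild-type morulae Hspa1b was at 0.953, 0.891, 2.21 and 1.25 CPM, from 13 to 39 counts. It was at 4.50, 8.73, 3.36 and 6.33 CPM in the Ttf1 knockout and at 8.46, 6.56, 9.95 and 9.64 CPM in the Zfp622 knockout. All 8 knockout libraries were above all wild-type libraries. For Hspa1b the log2 fold change was 2.08 (SE 0.32, adjusted p = 0.000134) in the Ttf1 knockout and 2.68 (SE 0.32, adjusted p = 4.33e-05) in the Zfp622 knockout.

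Hspa1a was at 0.136, 0.206, 0.566 and 0.752 CPM in wild-type morulae, from only 2 to 12 counts. The Ttf1 knockout libraries were at 1.77, 1.93, 0.740 and 1.89 CPM and the Zfp622 knockout libraries at 2.32, 2.32, 4.17 and 2.53 CPM. The third Ttf1 knockout library, with 11 counts, lay inside the wild-type range, and the other knockout libraries lay above it. For Hspa1a the log2 fold change was 1.88 (SE 0.45, adjusted p = 0.00337) in the Ttf1 knockout and 2.72 (SE 0.44, adjusted p = 0.000299) in the Zfp622 knockout.

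Because reads may be divided between these copies, their counts were also summed. The pair then had 16 to 49 counts per wild-type morula library, 61 to 149 in the Ttf1 knockout and 115 to 210 in the Zfp622 knockout. The log2 fold change of the sum was 2.05 in the Ttf1 knockout (SE 0.32, adjusted p = 0.000205) and 2.70 in the Zfp622 knockout (SE 0.32, adjusted p = 5.92e-05), with edgeR's test over all genes. Over all alternatives tried, the adjusted p of Hspa1a stayed at or below 0.0136 and that of Hspa1b at or below 0.00107 in both comparisons. The size varied more. For Ttf1 the log2 fold change of Hspa1a had a range of 1.585 to 3.14 and that of Hspa1b of 1.796 to 2.61. For Zfp622 the ranges were 2.42 to 3.98 and 2.52 to 3.21. The highest of each came without wild-type morula libraries 3 and 4, which have an additional index number in their headers and the most counts of Hspa1a and Hspa1b among the wild-type morulae.

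Hspa8 (ENSMUSG00000015656, chromosome 9 from 40800984 to 40810087, plus strand), the constitutive cytosolic HSP70, had small differences. It was at 9265, 9700.2, 9798 and 10004 CPM in wild-type morulae. The Ttf1 knockout libraries were at 7875, 9091, 8977 and 9111 CPM and the Zfp622 knockout libraries at 8549, 7858, 8473 and 6874 CPM. Both knockouts lay wholly below wild type, by a narrow margin for Ttf1. Hspa8 fell by 0.29 on the log2 scale in the Zfp622 knockout (SE 0.07, adjusted p = 0.0052). In the Ttf1 knockout the log2 fold change was -0.15 (SE 0.07) and was not called (adjusted p = 0.105 by edgeR, range over alternatives 0.0295 to 0.361), and 1 of 15 alternatives, no filter on low counts, called it. The Zfp622 call was lost (log2 fold change -0.26, adjusted p = 0.0727, range over alternatives 3.21e-05 to 0.0727) without wild-type libraries 3 and 4, which have an additional index number in their headers.

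Dnajb1 (ENSMUSG00000005483, chromosome 8 from 83608193 to 83612653, plus strand), the stress-inducible J-domain partner of HSP70, fell in the Ttf1 knockout. Wild-type morulae were at 125, 138, 143 and 120.4 CPM, the Ttf1 knockout at 90.5, 116, 107.6 and 102 CPM and the Zfp622 knockout at 138, 119, 143 and 124 CPM. The Ttf1 knockout did not overlap with wild type, and the Zfp622 knockout did. The log2 fold change was -0.34 in the Ttf1 knockout (SE 0.09, adjusted p = 0.00656) and -0.01 in the Zfp622 knockout (SE 0.09, adjusted p = 0.952).

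The HSP90 genes were, with Hspa8, the members with the most counts, and were not called in either knockout. Hsp90aa1 (ENSMUSG00000021270, chromosome 12 from 110690605 to 110702728, minus strand), the inducible form, ran from 11816 to 13157 CPM in wild-type morulae, 11874 to 13085 CPM in the Ttf1 knockout and 11763 to 14163 CPM in the Zfp622 knockout, ranges that overlap. Its log2 fold changes were -0.02 and 0.04 (SE 0.06 each). Hsp90ab1 (ENSMUSG00000023944, chromosome 17 from 45567775 to 45573271, minus strand), the constitutive form, ran from 4699 to 5259, 5189 to 5493 and 4574 to 5269 CPM in the same order, with log2 fold changes of 0.11 and -0.02 (SE 0.06 each, adjusted p = 0.147 and 0.808 by edgeR).

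Hsph1 (ENSMUSG00000029657, chromosome 5 from 149614287 to 149636376, minus strand), a member of the HSP110 family that exchanges the nucleotide of HSP70, was also not called. It ran from 162 to 182 CPM in wild-type morulae, 128 to 165 CPM in the Ttf1 knockout and 135 to 192 CPM in the Zfp622 knockout. The log2 fold change was -0.25 in the Ttf1 knockout (SE 0.11, adjusted p = 0.0954) and -0.08 in the Zfp622 knockout (SE 0.11, adjusted p = 0.653). In the Ttf1 knockout 3 of 15 alternatives called Hsph1 lower, 1 of them with a single library left out. Leaving out that library, the fourth and highest of the Ttf1 knockout, brought the value to -0.34 with an adjusted p of 0.042 (range over alternatives 0.00831 to 0.287).

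**Figure D3:**
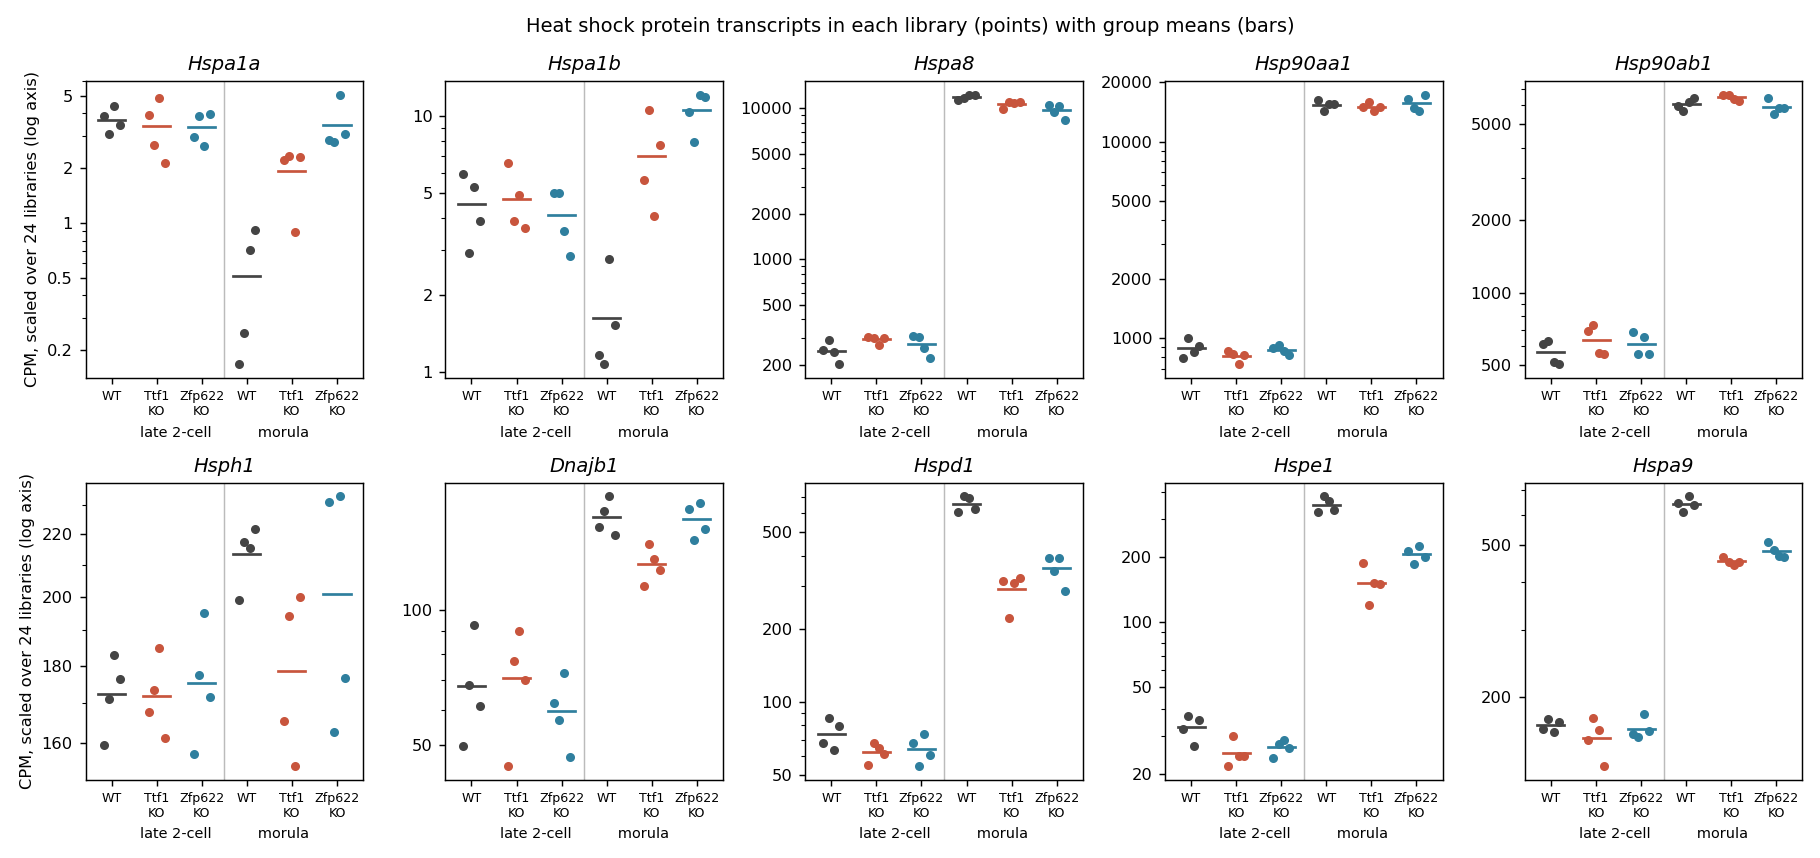
CPM of each member in every library (points, logarithmic y axes, scaled over the 24 libraries) with group means as bars, late 2-cell groups to the left and morula groups to the right of the line. The knockout morulae stand above wild type for Hspa1b and below it for Hspd1, Hspe1 and Hspa9, and the groups of one stage overlap for Hsp90aa1.

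Direct comparison of the knockouts at morula with edgeR called none of the 10 members, with 0.229% of genes called (0.128% higher, 0.101% lower in the Ttf1 knockout). At an unadjusted p under 0.05 stood Hspa1a, Hspa1b, Hsp90ab1, Dnajb1, Hspd1 and Hspe1. Libraries did not overlap for 4 members, against 6.18% of all genes. The log2 fold change of Ttf1 against Zfp622 knockout was -0.44 for Hspe1 (SE 0.10, adjusted p = 0.0811), -0.33 for Dnajb1 (SE 0.09, adjusted p = 0.126) and -0.28 for Hspd1 (SE 0.12, adjusted p = 0.33). DESeq2 called Hspe1 (adjusted p = 0.0112, range over alternatives 0.000102 to 0.22) and Dnajb1 (adjusted p = 0.0343, range 0.0218 to 0.296) lower in the Ttf1 knockout. With no filter on low counts edgeR also called Hspd1 lower (adjusted p = 0.0347, range 0.0347 to 0.581). Without the first Ttf1 knockout library edgeR called Hspe1, at -0.54 (adjusted p = 0.0194). The lane difference lies between these groups.

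Late 2-cell embryos showed no call among the 10 members in either knockout, where edgeR called 1.54% of 16770 genes in the Ttf1 knockout (0.739% higher, 0.799% lower) and 0.0179% in the Zfp622 knockout (0.00596% higher, 0.0119% lower). Unadjusted p was under 0.05 for Hspa8, Hspd1 and Hspe1 in the Ttf1 knockout and for Hspe1 in the Zfp622 knockout. No member's libraries were apart from wild type, against 9.94% and 3.21% of genes. Hspe1 was at 39.4, 45.1, 32.8 and 43.6 CPM in wild type, 26.5, 36.4, 29.6 and 29.7 CPM in the Ttf1 knockout and 29.0, 33.6, 35.2 and 32.3 CPM in the Zfp622 knockout. The knockouts were mostly lower but overlapped with wild type, with log2 fold changes of -0.40 (SE 0.13, adjusted p = 0.129) and -0.31 (SE 0.13, adjusted p = 0.724). DESeq2 called the first (adjusted p = 0.0494, range over alternatives 0.0494 to 0.303) and no member in the Zfp622 knockout.

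Hspd1 at that stage was at 82.8, 104.9, 77.6 and 97.8 CPM in wild type, 67.1, 82.9, 79.1 and 74.5 CPM in the Ttf1 knockout and 82.9, 66.4, 90.2 and 74.1 CPM in the Zfp622 knockout. All groups overlapped, and the log2 fold changes were -0.26 (SE 0.12, adjusted p = 0.277) and -0.21 (SE 0.12, adjusted p = 0.825). Hspa1b was at 3.57 to 7.27 CPM in wild type, 4.45 to 8.01 CPM in the Ttf1 knockout and 3.48 to 6.13 CPM in the Zfp622 knockout, with log2 fold changes of 0.07 and -0.14 (SE 0.27 each).

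Whether a knockout effect differed between stages was tested as an interaction over all 24 libraries. For the Ttf1 knockout 6 members were called, 2 of them with a higher and 4 with a lower effect at morula, where 21.2% of 18864 genes were called (12.5% higher, 8.65% lower) and the median of all genes was 0.11. The difference in log2 fold change, morula minus late 2-cell, was 2.00 for both Hspa1a (SE 0.52, adjusted p = 0.0069) and Hspa1b (SE 0.44, adjusted p = 0.0016). It was -0.91 for Hspd1 (SE 0.17, adjusted p = 0.000342), -0.80 for Hspe1 (SE 0.16, adjusted p = 0.000879), -0.39 for Hspa9 (SE 0.11, adjusted p = 0.00793) and -0.40 for Hspa8 (SE 0.14, adjusted p = 0.032).

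For the Zfp622 knockout 5 members were called, 2 higher and 3 lower, where 10.7% of genes were called (6.45% higher, 4.21% lower). The difference was 2.85 for Hspa1a (SE 0.51, adjusted p = 0.000567), 2.80 for Hspa1b (SE 0.44, adjusted p = 0.000133), -0.68 for Hspd1 (SE 0.17, adjusted p = 0.00937), -0.38 for Hspa9 (SE 0.11, adjusted p = 0.0179) and -0.45 for Hspa8 (SE 0.14, adjusted p = 0.0317). For Hspe1 it was -0.45 (SE 0.16) and was not called (adjusted p = 0.0722), but 4 of 23 alternatives called it (adjusted p from 0.0279 to 0.158 over all): DESeq2, no filter on low counts, only the 16 libraries of the groups compared, and leaving out late 2-cell wild-type library 2. The Hspa8 calls were the least stable, lost in 9 of 23 alternatives for Ttf1 and in 10 of 23 for Zfp622. Each was lost when any of 8 of the 16 libraries was left out. For Ttf1 these were late 2-cell wild-type libraries 3 and 4, morula wild-type libraries 3 and 4, late 2-cell knockout libraries 1, 2 and 4 and morula knockout library 1, with values from -0.41 to -0.32. For Zfp622 they were the same wild-type libraries, late 2-cell knockout libraries 1 and 2 and morula knockout libraries 2 and 4, with values from -0.44 to -0.38. When the 3 wild-type libraries whose headers have an additional index number were left out, the adjusted p rose above 0.05 for Hspa8 and Hspa9 in both knockouts and for Hspd1 in the Zfp622 knockout (0.052), with the same signs. The Hspa1a difference then rose to 3.32 for Ttf1 and 4.17 for Zfp622, and that of Hspa1b to 2.62 and 3.42.

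Between the late 2-cell and the morula stage of wild-type embryos, 8 members rose, from 1.24-fold for Hsph1, whose sign turns with scaling by total counts only, to 48.0-fold for Hspa8, and Hspa1a and Hspa1b fell. Of the 10 members 8 were called higher and 2 lower at morula, where 84% of genes were called (37.9% higher, 46.1% lower), and no member's libraries overlapped between stages, as for 79.8% of genes. The members together rose from 0.270% ± 0.0184 of all counts to 2.87% ± 0.0379 (SD, n = 4). The median log2 fold change was 2.54 over the members and -0.30 over all genes. The latter was -0.40 with DESeq2 size factors and -0.87 with total counts only, which turned 7141 higher and 8701 lower calls into 5595 and 10420, and changes near these shifts depend on the scaling.

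On the scale over 24 libraries Hspa8 was at 253, 294, 243 and 202 CPM at the late 2-cell stage and at 11390, 11700.4, 12311 and 12197 CPM at morula. Its mean was 48.0 times higher at morula (log2 fold change 5.59, SE 0.12, adjusted p = 1.58e-25), the largest ratio among the members. Hsp90aa1 rose 17.2-fold (log2 4.10, SE 0.08), from 893 ± 89.4 to 15372 ± 805 CPM. Hsp90ab1 rose 10.7-fold (log2 3.42, SE 0.10), from 565 ± 64.7 to 6053 ± 315 CPM (SD, n = 4). Of the mitochondrial members Hspe1 rose 10.6-fold (log2 3.41, SE 0.12), Hspd1 8.85-fold (log2 3.15, SE 0.13) and Hspa9 3.80-fold (log2 1.93, SE 0.08). Dnajb1 rose 2.38-fold (log2 1.25, SE 0.17). Adjusted p was at most 3.77e-07 for each of these by edgeR.

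Hsph1 changed least, from 173 ± 9.93 to 213 ± 9.98 CPM (SD, n = 4), and its sign depends on the scaling. It was called higher (log2 0.31, SE 0.10, adjusted p = 0.00694), was not called with DESeq2 size factors (0.21, adjusted p = 0.0612), and was called lower with total counts only (-0.27, adjusted p = 0.021). The range of adjusted p over alternatives was 0.00265 to 0.0744. The pair that fell held few counts. Hspa1a went from 3.69 ± 0.571 to 0.511 ± 0.361 CPM (log2 -2.80, SE 0.39, adjusted p = 1.75e-07) and Hspa1b from 4.51 ± 1.36 to 1.64 ± 0.781 CPM (log2 -1.44, SE 0.33, adjusted p = 0.000188), and their sum fell by 1.91 on the log2 scale (SE 0.30, adjusted p = 1.03e-06). Without the wild-type libraries that have an additional index number, the values were -4.13 for Hspa1a and -2.07 for Hspa1b.

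Levels of different genes were compared per kilobase of exon, on the scale over 24 libraries, as a description. The length was of all annotated exons of a gene, 1474 bases for Hspe1, whose longest transcript has 774. It was 4301 against 2394 bases for Hspa8 and 2642 against 2423 for Hspd1, so the order depends on the length used. Of 150-base stretches, 56.0% in Hspa8 but 0 in Hsp90ab1 occur in another gene, which also limits their comparison. At the late 2-cell stage of wild type the order was led by Hsp90aa1 (227 CPM per kb) and Hsp90ab1 (188), whose libraries overlapped, then Hspa8 (57.6) and Hspa9 (39.1). Hspd1 (28.0), Hsph1 (23.8), Hspe1 (22.3) and Dnajb1 (21.2) followed, each overlapping with the next, and Hspa1b (1.61) and Hspa1a (1.25) closed it. In wild-type morulae Hspa8 (2767) had passed Hsp90ab1 (2018) and stood behind Hsp90aa1 (3910.3), with no overlap between neighbours. Hspd1 (248) and Hspe1 (236) overlapped with each other and had passed Hspa9 (149), and Dnajb1 (50.4), Hsph1 (29.4), Hspa1b (0.584) and Hspa1a (0.172) came last. In the Ttf1 knockout morulae Hspd1 (111), Hspa9 (105.3) and Hspe1 (103.1) overlapped as neighbours, and in the Zfp622 knockout Hspe1 (139), Hspd1 (134) and Hspa9 (112) did.

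**Figure D4:**
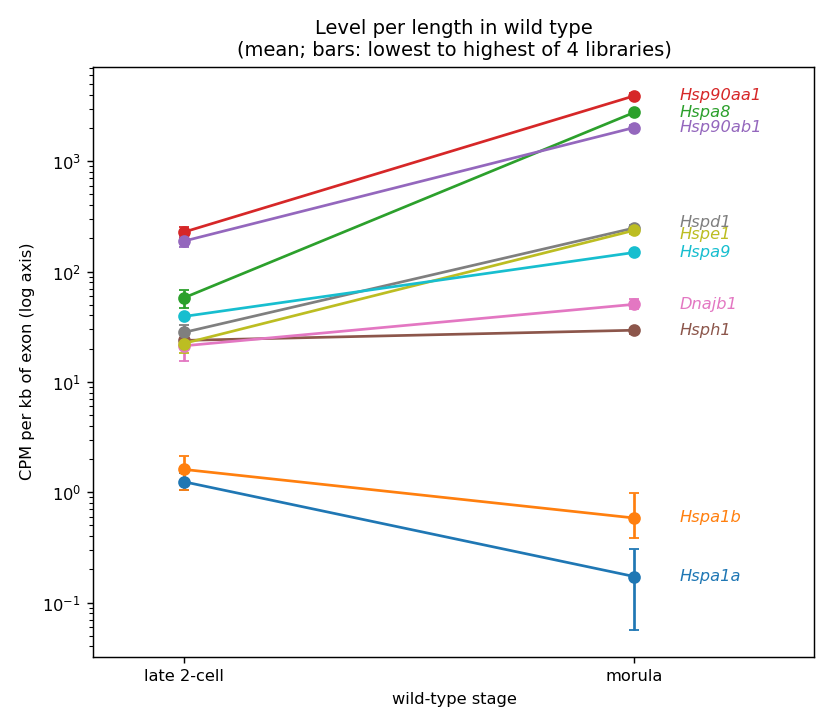
Mean level per kilobase of exon of each member in wild-type embryos at the late 2-cell and morula stages (logarithmic y axis), with bars from the lowest to the highest of 4 libraries. Lines of 8 members rise, that of Hspa8 most steeply from 57.6 to 2767 CPM per kb, and those of Hspa1a and Hspa1b fall.

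Several members of the knockout morulae lay between the wild-type stages. On the log2 scale the Ttf1 knockout mean of Hspd1 stood at 63.0% of the way from the late 2-cell to the morula level of wild type, that of Hspe1 at 64.9% and that of Hspa9 at 74.1%. For the Zfp622 knockout these shares were 71.8%, 77.7% and 78.7%. Dnajb1 stood at 72.0% and 98.4% in the Ttf1 and Zfp622 knockouts, and Hsph1, whose stage difference is small, at 16.01% and 71.6%. Hspa1a, which falls between the stages, had gone 32.6% and 3.43% of that way, while Hspa1b lay above its wild-type late 2-cell level in both. Hspa8, Hsp90aa1 and Hsp90ab1 stood between 94.7% and 102.9% in both knockouts. These shares were not tested. From their own late 2-cell level, Hspd1 rose 4.72-fold in the Ttf1 knockout and 5.53-fold in the Zfp622 knockout, against 8.85-fold in wild type. Hspa1b was at 1.47 and 2.57 times its late 2-cell level in the Ttf1 and Zfp622 knockout morulae, against 0.363 times in wild type.

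Stage markers were read in the same libraries. The summed level of 7 morula markers (Nanog, Cdx2, Gata3, Krt8, Krt18, Sox2 and Tead4) was 1037 CPM in wild-type morulae (997 to 1092), 509 CPM in the Ttf1 knockout (440 to 633) and 662 CPM in the Zfp622 knockout (448 to 831). Of these, 5 were called lower and 1 higher in the Ttf1 knockout, and 4 lower and 1 higher in the Zfp622 knockout. Over all genes 17.9% were called lower and 21.3% higher in the Ttf1 knockout, and 13.5% and 15.6% in the Zfp622 knockout. The sum was mostly Nanog in wild type, at 620, 191 and 332 CPM in the same order, while Tead4 was at 81.9, 110 and 96.6 CPM. The summed level of 7 late 2-cell markers was 17.2, 39.8 and 33.9 CPM in the same order (7.45 to 30.8, 18.3 to 69.8 and 27.1 to 40.4). Of the 6 tested, 2 were called higher in the Ttf1 knockout and 1 in the Zfp622 knockout. Both knockouts overlapped with wild type in that sum (exact two-sided permutation p = 0.143 and 0.0857, adjusted 0.312 and 0.206). The share of counts from the mitochondrial genome was 2.36% ± 0.0906 in wild type, 3.47% ± 0.253 in the Ttf1 knockout and 3.17% ± 0.406 in the Zfp622 knockout (SD, n = 4). For the morula marker sum and the mitochondrial share neither knockout overlapped with wild type (exact two-sided permutation p = 0.0286, the smallest that 4 against 4 can give, 0.0981 after adjustment over 24 such tests). Of markers of other cells, cumulus and granulosa markers summed to 1.57 to 3.50 CPM in all morula groups, with 8 of 9 under 1 CPM, and all 8 sperm markers were under 1 CPM, although Prm2, a sperm protamine, was called higher in both knockouts (0.0171 CPM in wild type, 0.695 and 0.774 CPM in the knockouts). The sperm marker sum was 0.411 to 0.509 CPM in wild type, 0.444 to 1.65 CPM in the Ttf1 knockout and 0.599 to 1.85 CPM in the Zfp622 knockout, the last without overlap with wild type (exact permutation p = 0.0286, adjusted 0.0981). Blood markers summed to 1.07 to 2.47 CPM in wild type, 5.72 to 8.93 CPM in the Ttf1 knockout and 3.63 to 10.2 CPM in the Zfp622 knockout, again without overlap with wild type (the same exact permutation p of 0.0286 and adjusted p of 0.0981). Of these 10, 9 were under 1 CPM in each morula group, and the sum was mostly Hba-a1, a globin gene, at 1.62, 6.70 and 5.64 CPM. Both Hba-a1 and Prm2 were higher in wild-type late 2-cell embryos than in wild-type morulae, at 11.7 and 0.490 CPM on the scale of that stage. Whether their higher levels in knockout morulae come from other cells was not tested. The part of these differences in the heat shock protein results was not tested.

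The other genes of the chaperone network were read as lists, by counts and medians without a test of the list. Over all genes tested at morula, 21.3% were called higher and 17.9% lower in the Ttf1 knockout, and 15.6% and 13.5% in the Zfp622 knockout. Between wild-type stages 37.9% of genes were called higher and 46.1% lower. Every list count below is to be read beside these shares, and several lie near them. Of the heat shock factors and their binding protein, the transcriptional regulators of these genes, 4 were tested at morula and none was called in either knockout by edgeR, with 0 at an unadjusted p under 0.05 (the lowest was 0.0818, for Hsf2 in the Ttf1 knockout). Hsf1, the main stress-responsive factor, was at 14.8 CPM in wild-type morulae, 15.6 CPM in the Ttf1 knockout and 14.9 CPM in the Zfp622 knockout, and Hsf2 at 90.6, 102 and 94.6 CPM. Between wild-type stages, on the scale over 24 libraries, Hsf2 rose from 8.55 to 111 CPM (log2 3.71, SE 0.16) and Hsf1 fell from 57.0 to 18.2 CPM (log2 -1.64, SE 0.12). Hsbp1, which binds heat shock factor trimers, rose by 1.14 (SE 0.10), and of the 5 tested 2 were called higher and 3 lower.

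The TRiC chaperonin, the cytosolic counterpart of HSPD1 and HSPE1 that folds actin and tubulin, was lower in both knockouts too. All 8 subunits were called lower in the Ttf1 knockout morulae (median log2 fold change -0.30) and 6 of 8 in the Zfp622 knockout (median -0.27), beside medians of 0.04 and 0.03 over all genes. Cct5 was at 1096 ± 27.8 CPM in wild type, 749 ± 32.0 in the Ttf1 knockout and 763 ± 42.8 in the Zfp622 knockout (SD, n = 4), with log2 fold changes of -0.55 and -0.52 (SE 0.06 each). Tcp1 had -0.56 and -0.42, and Cct6a -0.48 and -0.35. Between wild-type stages all 8 rose (median 2.78), among them Cct7 by 3.73, Cct6a by 2.77 and Cct8 by 2.16.

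Endoplasmic reticulum chaperones, which fold secreted and membrane proteins, were lower for 10 and higher for 1 of 15 in the Ttf1 knockout (median -0.45) and lower for 9 of 15 in the Zfp622 knockout (median -0.43). In the Ttf1 knockout the strongest by p were Pdia3 (-0.42), Manf (-0.70) and P4hb (-0.53), and in the Zfp622 knockout Dnajb11 (-0.43), P4hb (-0.44) and Manf (-0.51). At the late 2-cell stage of the Ttf1 knockout Manf was already called lower (-0.40, adjusted p = 0.0283) and Creld2 higher (0.45, adjusted p = 0.0447). Those 2 were named after their values were seen. Between wild-type stages 10 rose and 3 fell, with Canx at 0.96, Dnajb11 at 0.94 and Dnajb9, a stress-inducible luminal J-domain protein, at -1.30.

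**Figure D5:**
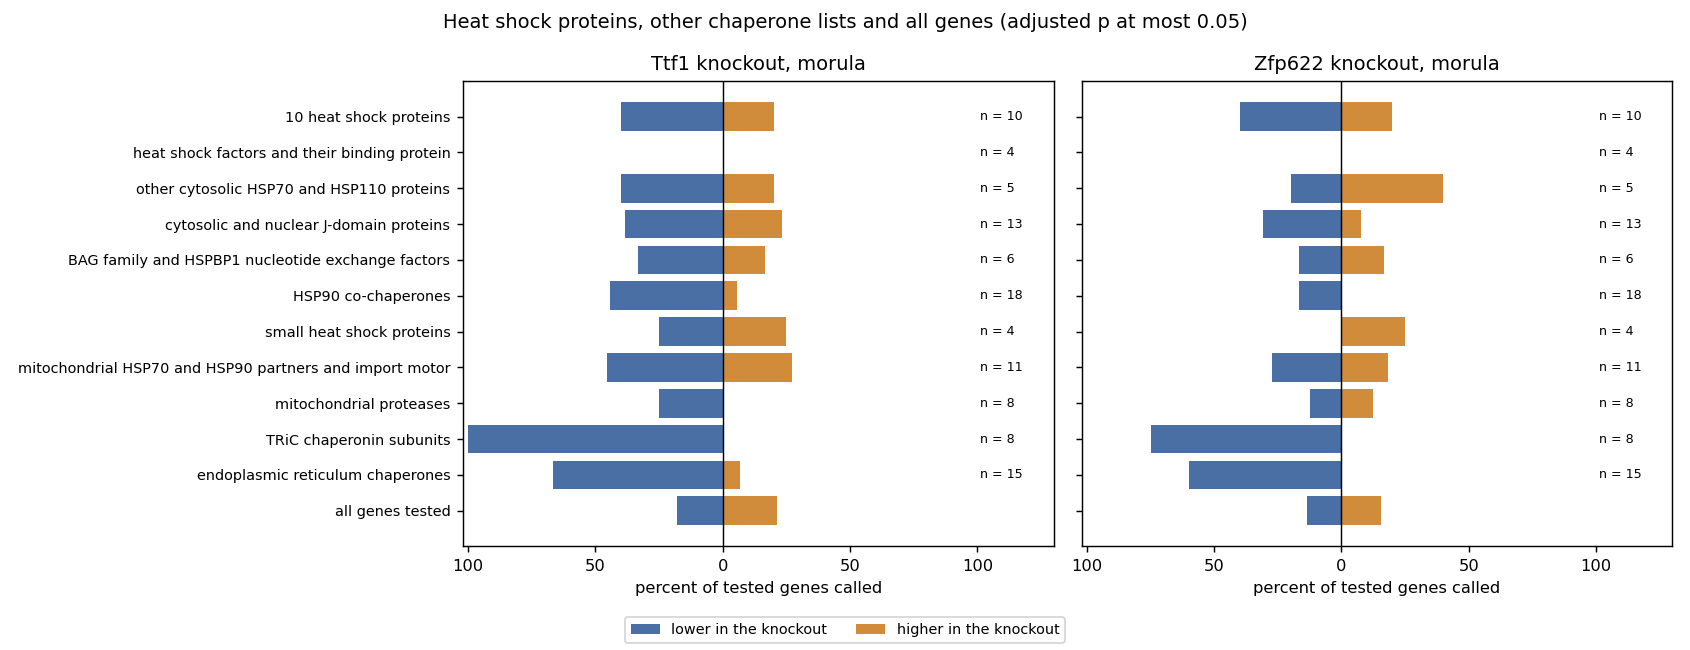
Percent of tested genes called lower (left of 0) and higher (right of 0) at morula in the Ttf1 knockout (left panel) and the Zfp622 knockout (right panel), for the 10 heat shock proteins, other chaperone lists (n tested at the right) and all genes. TRiC subunits (8 and 6 of 8 lower) and endoplasmic reticulum chaperones (10 and 9 of 15 lower) have the longest bars to the left.

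HSP90 co-chaperones, which load clients on HSP90 or speed its ATPase, were lower for 8 and higher for 1 of 18 in the Ttf1 knockout (median -0.20) and lower for 3 in the Zfp622 knockout (median -0.14), where 17.9% and 13.5% of all genes were called lower. Ahsa1, the activator of the HSP90 ATPase, was at -0.76 and -0.50, Chordc1 at -0.53 and -0.34, and Ttc4 at -0.59 and -0.52. Between wild-type stages 15 of 18 rose and 3 fell (median 1.31), among them Stip1, which bridges HSP70 and HSP90, from 422 to 2406 CPM (log2 2.51, SE 0.08), Sugt1 at 1.70 and Chordc1 at 2.97.

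J-domain proteins of the cytosol and nucleus were mixed, with 3 higher and 5 lower of 13 in the Ttf1 knockout (median -0.10) and 1 higher and 4 lower in the Zfp622 knockout (median -0.01). Over all genes 21.3% were higher and 17.9% lower in the Ttf1 knockout, and 15.6% and 13.5% in the Zfp622 knockout. Dnaja2 (-0.55 and -0.50), Dnajc8 (-0.41 and -0.35) and Dnajc2 (-0.48 and -0.59) fell in both. Between wild-type stages 9 rose and 3 fell. Dnaja1, an HSP70 partner, rose from 526 to 6543 CPM (log2 3.64, SE 0.09), Dnajc7 by 2.04 and Dnajc2 by 2.86.

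Other cytosolic HSP70 and HSP110 genes had 1 higher and 2 lower of 5 in the Ttf1 knockout (median -0.20) and 2 higher and 1 lower in the Zfp622 knockout (median -0.08). Hspa4, the relative of Hsph1, fell in both (-0.57 and -0.42), and Hspa4l rose in both (0.83 and 0.88) from a wild-type mean of 2.04 CPM. Hspa14 fell in the Ttf1 knockout (-0.20, adjusted p = 0.0492) and Hspa2, better known from spermatocytes, rose in the Zfp622 knockout (1.05, adjusted p = 0.0253). Between wild-type stages Hspa4 rose by 1.44 and Hspa14 by 0.99, Hspa4l fell by 2.99, and 2 of 5 rose and 2 fell in all. Of 6 BAG family and HSPBP1 exchange factors, Bag5 (-0.51 and -0.40) fell and Hspbp1 (0.38 and 0.33) rose in both knockouts, and Bag1 fell in the Ttf1 knockout (-0.28). The list medians were -0.34 and -0.16. Between wild-type stages 3 rose (Hspbp1 by 1.62, Bag3 by 1.39 and Bag1 by 0.78) and 1 fell.

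The mitochondrial partners of HSPA9 and the import motor did not all follow the 3 mitochondrial members. In the Ttf1 knockout 5 of 11 were lower and 3 higher (median -0.05), and in the Zfp622 knockout 3 lower and 2 higher (median 0.07). Of all genes 17.9% were lower and 21.3% higher in the Ttf1 knockout, and 13.5% and 15.6% in the Zfp622 knockout. Trap1, the mitochondrial HSP90, fell by 0.69 and 0.43, and Grpel2, a nucleotide exchange factor of HSPA9, by 0.61 and 0.46. Timm44, which tethers HSPA9 to the import channel, fell by 0.48 and 0.32, and Dnajc19 rose by 0.23 in the Ttf1 knockout and 0.39 in the Zfp622 knockout. Between wild-type stages 9 of 11 rose, including Dnajc19 (4.19), Clpb (3.17) and Grpel1 (2.16), and 2 fell. Of 8 mitochondrial proteases 2 were lower in the Ttf1 knockout, Afg3l2 (-1.04) and Htra2 (-0.46), and in the Zfp622 knockout Afg3l2 was lower (-0.80) and Clpp higher (0.21), with medians of -0.12 and -0.04. Between wild-type stages 6 of 8 rose and 2 fell, among them Htra2 (2.58), Clpx (1.16) and Spg7 (-1.91).

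Of 8 small heat shock proteins 4 were tested at morula. Cryab, alpha-B crystallin, rose from 6.34 ± 1.46 CPM in wild type to 26.7 ± 12.6 CPM in the Ttf1 knockout (SD, n = 4, log2 2.07, SE 0.43) and 24.2 ± 11.0 CPM in the Zfp622 knockout (log2 1.92, SE 0.43). Hspb8 fell in the Ttf1 knockout (-0.88, SE 0.29). The list medians were 0.02 and 0.44. Between wild-type stages Cryab was listed at 0 in all late 2-cell libraries and at 7.79 CPM in morulae, Hspb8 went from 0.162 to 18.3 CPM, and Hspb1 fell from 94.7 to 23.8 CPM (log2 -1.99, SE 0.37), with 2 of 4 higher and 2 lower.

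Genes with the pattern most like a member were ranked by the Pearson correlation of log2(CPM + 1) over the 24 libraries among 10209 genes. The values reflect mainly the stage difference that all points share, and are a description. For Hspd1 the closest non-members were Tcp1 (0.994), a TRiC subunit, Ciapin1 (0.992), Cacybp (0.991), Vdac2 (0.991) and Nup85 (0.991), while Hspe1 had 0.995 and Hspa9 0.989. For Hspa8 they were Cdipt (0.998), Eef1g (0.998), Calcoco2 (0.998), Gulo (0.998) and Kxd1 (0.997), and Hsp90ab1 (0.997) and Hsp90aa1 (0.997) were about as close. Hspd1 and Hspa8 had 0.960 with each other, and Hspa1b had -0.11 with Hspd1 and 0.10 with Hspa8.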

How the data were processed

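Each library is a pool of embryos, and groups came from sample titles, since 7 Zfp622 genotype labels and the strain labels count upward. Values are raw counts of read pairs per gene as the authors deposited them. Per the file headers, featureCounts 2.0.1 assigned pairs to exons of Ensembl release 99 on GRCm38 without strand, leaving out pairs that map to several places or overlap several genes; per the submitters' processing notes the aligner was HISAT2 2.2.1. Symbols were matched for 55144 of 55471 identifiers.

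Genes were kept by filterByExpr, scaled by TMM and tested with robust quasi-likelihood fits in edgeR 4.0.16 (R 4.3.3), without a replicate block, at a threshold of 0.05 on the Benjamini-Hochberg adjusted p, over the 12 libraries of a stage or all 24; the steps were tested on simulated data. P-values measure the spread between the libraries, separate reactions per the labels' protocols. Replicates differed by more than sampling noise (chi-square per degree of freedom 6.50 to 24.5 over 36 pairs), so none was counted as a repeat deposit. Alternatives were DESeq2 1.42.0 and its size factors, total counts, no filter, fewer libraries, a replicate block, a summed Hspa1 pair, and leaving libraries out. Motifs were searched on both strands.

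Members and lists were chosen with earlier results of these data known. Named besides the members are Ttf1, Zfp622, up to 3 called genes with the smallest p per chaperone list in each morula knockout and the wild-type stage comparison, and the 5 genes most like Hspd1 and Hspa8 with a mean of at least 5 CPM, without predicted genes; exceptions are stated.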

Additional observations from a re-analysis of the deposited data

Results flagged for a closer look

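Among 60 groups of 4 libraries (10 members in 6 groups) 4 had a library far from the other 3 by Dixon's test, and chance alone flags about 1 in 20 groups. Hspa1a was at 0.740 CPM in the third Ttf1 knockout morula library, where the nearest was 1.77 CPM, and at 4.17 CPM in the third Zfp622 knockout morula library, where the nearest was 2.53 CPM. Hspa8 was at 333 CPM in the third Ttf1 knockout late 2-cell library (nearest 366 CPM) and at 7875 CPM in the first Ttf1 knockout morula library (nearest 8977 CPM).

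A knockout effect differed between morula and late 2-cell in 11 member tests by the interaction term. For the Ttf1 knockout the log2 difference was 2.00 for Hspa1a and 2.00 for Hspa1b, -0.40 for Hspa8, -0.91 for Hspd1, -0.80 for Hspe1 and -0.39 for Hspa9. For the Zfp622 knockout it was 2.85 for Hspa1a, 2.80 for Hspa1b, -0.45 for Hspa8, -0.68 for Hspd1 and -0.38 for Hspa9. Both sets share the wild-type libraries, so they are not independent of each other.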

How the results depend on the processing

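At morula the calls of Hspd1, Hspe1, Hspa9, Hspa1a and Hspa1b in both knockouts, and of Dnajb1 in the Ttf1 knockout, kept their direction and stayed past the threshold in each of the 15 or 16 alternatives run. For Hspd1 the log2 fold change of the Ttf1 comparison was between -1.24 and -1.06, and that of the Zfp622 comparison between -0.95 and -0.80. The counts over all genes moved more, and where they did the cause was not tested.

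Of all genes, the Ttf1 knockout at the late 2-cell stage had 258 calls, but 761 with DESeq2 (1 member lower, Hspe1), 769 with no filter on low counts, 482 with only the 8 libraries compared, 66 without wild-type libraries of a second index, and 60 to 198 with 1 library left out. Without wild-type libraries 2, 3 or 4 there were 60, 114 and 66, and without knockout libraries 2, 3 or 4 99, 127 and 77. The Zfp622 knockout at that stage had 3, but 21 with DESeq2, 88 with no filter and 2 to 7 with 1 library left out (7 without knockout library 2). Between the knockouts at morula there were 34, but 323 with DESeq2 (2 members lower), 368 with no filter (3 members lower), 9 with only the 8 libraries, and 2 to 150 with 1 library left out (0 to 1 members lower). Without wild-type libraries of a second index, morula calls fell from 5833 to 3553 for Ttf1 and from 4321 to 2043 for Zfp622. The stage interactions then fell from 3992 to 2132 (members lower from 4 to 2) and from 2010 to 646 (members lower from 3 to 0). With 1 library left out the Zfp622 interaction had 1339 to 2185, the lowest without morula knockout library 4. Total counts in place of TMM moved the share of higher among called genes from 48.1% to 59.5% for Ttf1 at the late 2-cell stage, from 45.1% to 34.9% between stages and from 55.9% to 40.7% between the knockouts.

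Signs changed for members that were not called, and for Hsph1 between stages with total counts (-0.27). For the Ttf1 knockout at the late 2-cell stage Hsph1 was 0.020 with total counts and 0.0042 without the second-index libraries, and Hspa1b was -0.015 when summed with Hspa1a. With 1 library left out Hspa1a ran from -0.35 to 0.041, Hspa1b from -0.12 to 0.23, Hsph1 from -0.046 to 0.023 and Dnajb1 from -0.088 to 0.24. For the Zfp622 knockout at that stage Hspa1b ran from -0.30 to 0.023, Hsp90aa1 from -0.078 to 0.028, Hsph1 from -0.032 to 0.073 and Dnajb1 from -0.31 to 0.0035. For Zfp622 at morula Dnajb1 was 0.0085 with total counts, 0.0044 with only the 8 libraries and -0.076 to 0.013 with 1 library left out, Hsp90aa1 ran from -0.020 to 0.064, and Hsp90ab1 was 0.018 without the second-index libraries. In the interactions Hsp90ab1 was 0.032 without those libraries for Ttf1, and for Zfp622 Hsp90aa1 was -0.00092 with no filter and -0.0095 to 0.10 with 1 library left out, where Dnajb1 ran from -0.024 to 0.28.

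Within a stage, libraries of different genotypes with the same replicate number were no more alike than others. The correlation of their deviations was -0.39 to 0.24 over 24 pairs, against -0.42 to 0.45 over 72 pairs with different numbers. Pairs between stages were not compared. With a replicate block the calls between the knockouts were 15, and 174 and 2 for Ttf1 and Zfp622 at the late 2-cell stage, 5532 and 4037 at morula, 15780 between stages and 3788 and 1829 for the interactions, with no change in the number of members called. Depth limits Hspa1a most, at 2 to 12 counts per wild-type morula library.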
